A study of Caenorhabditis elegans with 15 samples.

Results

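Genes of 2 classes of lysosomal and digestive proteases, the aspartyl proteases and the cathepsin-type cysteine proteases, were examined in whole adult Caenorhabditis elegans of 3 strains. The genes were chosen by name alone: every gene of the count table called asp, cpr, cpl or cpz with a number. This gave 27 of 20191 genes, of which 17 were aspartyl (asp) and 10 cysteine (7 cpr, 1 cpl and 2 cpz). Each strain had 5 libraries of worms at day 1 of adulthood, raised under standard conditions and harvested as synchronized populations. The strains, all labelled as N2 background, were wild-type N2, the mutant fndc-1(rny14) and the double mutant atfs-1(tm4525);fndc-1(rny14). FNDC-1 is a mitochondrial receptor for mitophagy, and ATFS-1 switches on genes of the unfolded protein response of mitochondria. Both mutant strains carry rny14, and none of the strains analysed here carried the atfs-1 allele alone. What tm4525 adds was therefore measured only on top of rny14. In whole worms, fewer cells of a type and less RNA per cell cannot be told apart.

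Aspartyl proteases of the pepsin and cathepsin D kind cut proteins with a pair of aspartates at the active site, while papain-like cathepsins B, L and Z use a cysteine. Both are made as inactive precursors and work best in acid, inside lysosomes or in the gut lumen. In the worm the intestine is the main site of digestion and is rich in lysosome-related granules, and several of these genes are known as gut enzymes. The V-ATPase proton pump acidifies the compartments in which they act, and cystatins are protein inhibitors of the cysteine class.

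Libraries held 46984106 to 61921123 counts. Levels are given as CPM, counts relative to library size scaled by TMM factors, and 15032 genes passed the filter on low counts and were tested. The fndc-1 transcript was at 36.8 to 47.2 CPM in wild-type worms, 7.26 to 7.53 CPM in the single mutant fndc-1, and 7.04 to 10.2 CPM in double-mutant libraries. The atfs-1 transcript averaged 104.0 ± 4.92, 93.4 ± 4.66 and 75.4 ± 4.59 CPM in the same order (SD, n = 5). Markers of intestine, sperm, oocytes, germline, moulting, pharynx, muscle, neurons and coelomocytes were all detected, with 0 markers lacking counts. Libraries of a strain differed in sperm markers, whose summed level was 356.7 and 285.1 CPM in wild-type libraries 2 and 4 and 40.67 to 47.75 CPM in the other wild-type libraries. The highest sum was 1082 CPM in double-mutant library 4, and the sums ran from 113.2 to 543.5 CPM in fndc-1.

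Of the 27 protease genes, 20 were tested, 11 aspartyl and 9 cysteine. The aspartyl genes asp-18 and asp-19 had 0 counts in every library, and they lie next to each other on chromosome V. The genes asp-7, asp-9, asp-15, asp-16 and cpr-2 had at most 11 counts in a library and were left out by the filter. Per kb of exon, asp-1, an intestinal aspartyl protease, had the highest mean in wild type, 2289 CPM per kb, followed by asp-6 at 2215 CPM per kb. Next came cpl-1, the cathepsin L of the worm, at 1436 CPM per kb, then the gut cathepsin B-like gene cpr-1 at 1345 CPM per kb and the cathepsin B-like gene cpr-6 at 1038 CPM per kb. The third aspartyl gene was asp-3, at 971.8 CPM per kb. The least abundant tested gene was asp-17, at 3.57 CPM per kb.

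The order of these levels was not sharp. The 5 wild-type libraries of neighbouring genes overlapped in all but 3 steps of the order: cpz-1 (307.8 CPM per kb) lay above asp-13 (220.7), asp-13 above asp-14 (43.48), and cpr-3 (15.11) above cpr-8 (6.862). Thus 13 genes lay at 220.7 CPM per kb or above and 7 at 43.48 or below, and both classes had members on each side of this gap.

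**Figure D1:**
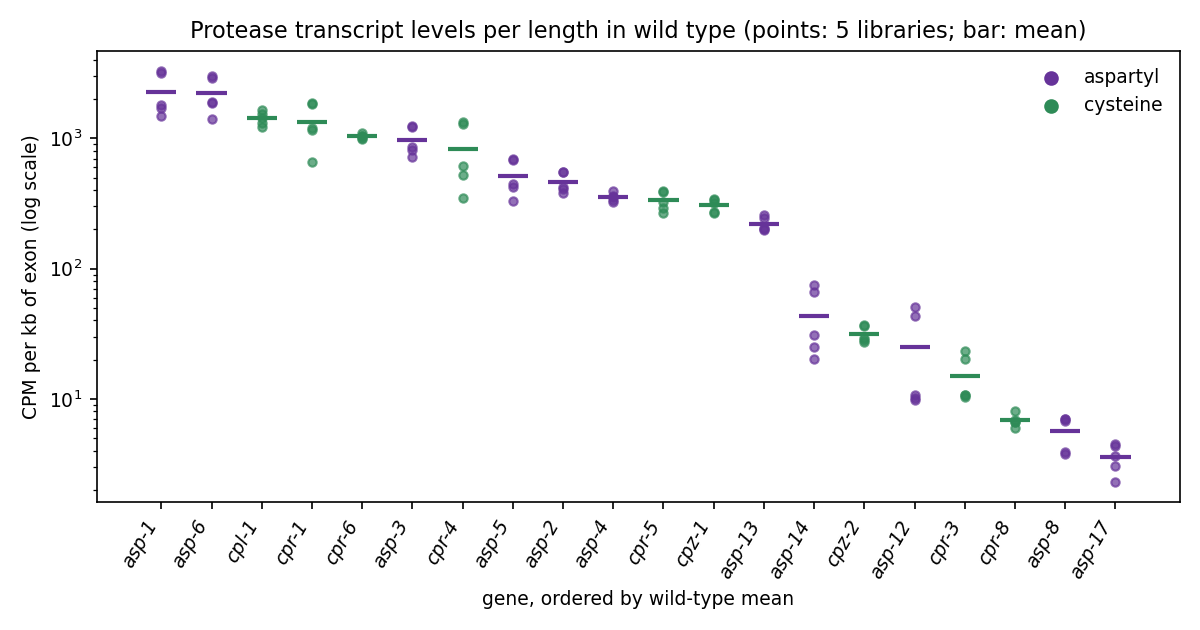
CPM per kb of merged exon on a log axis for the 20 tested protease genes in wild type, with a point for each of 5 libraries and a bar at the mean. Aspartyl (purple) and cysteine (green) genes interleave from asp-1 at 2289 to asp-17 at 3.57 CPM per kb.

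The genes were concentrated on chromosome V, which held 13 of 17 aspartyl and 8 of 10 cysteine genes, together 77.8%, against 24.7% of all genes in the table. Positions are those of Ensembl release 115 on WBcel235. Neighbours in a cluster differed widely in level. At the right of chromosome V, asp-17 (19035723 to 19037322), asp-16, asp-15 and asp-1 (19049562 to 19050752) lie in a row with no other coding gene between them. In wild type asp-1 averaged 2726 CPM, asp-17 averaged 4.32 CPM, and asp-15 and asp-16 were below the filter. In a second cluster, asp-6 (8267511 to 8268937, minus strand), asp-12 and asp-5 (8272385 to 8274044) are separated by 272 and 328 bases, and their wild-type means were 2824, 34.76 and 639.2 CPM. The third group of neighbours is cpr-5 (1132598 to 1134036, minus strand) and cpr-8 (plus strand), 565 bases apart and pointing away from each other, at 401.9 and 7.514 CPM. Exons of asp-2, asp-4 and cpz-2 overlap a gene of the opposite strand by 74, 33 and 59 bases, so a small part of their counts is uncertain if strand was not used in counting.

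Of the 9 tested cysteine protease genes, 3 were called lower in a mutant strain than in wild type, the cathepsin B-like genes cpr-1, cpr-4 and cpr-5. The other tested cpr genes, cpr-3, cpr-6 and cpr-8, were not called lower. The calls were cpr-1 and cpr-5 in fndc-1, where 1.87% of all genes tested were called and 0.685% called lower, and all 3 genes in the double mutant, where 4.71% were called and 0.998% called lower. The cpr-1 gene (chromosome V, 11975551 to 11976756) encodes a cysteine protease of the gut. It was measured at 1295, 1977, 711.7, 2021 and 1245 CPM in wild-type libraries 1 to 5, at 801.6, 642, 680.4, 410.8 and 389.5 CPM in fndc-1, and at 562.4, 604.4, 594.9, 390.5 and 613.3 CPM in the double mutant. Wild-type library 3 was the lowest of its strain and lay below fndc-1 library 1, while every double-mutant library lay below every wild-type library. In fndc-1 cpr-1 fell 2.48-fold (log2 -1.31, SE 0.271, adjusted p = 0.02172, edgeR quasi-likelihood test, Benjamini-Hochberg over all genes). In the double mutant it fell 2.62-fold (log2 -1.39, SE 0.272, adjusted p = 0.008912). The 2 comparisons share the wild-type libraries. The call of the double mutant was kept in all 27 alternatives, while that of fndc-1 was lost in 8, with adjusted p up to 0.1358 without wild-type libraries 2 and 4 (log2 -0.88). It was also lost without fndc-1 libraries 4 and 5 (adjusted p = 0.0944) and when any of these 5 libraries was left out alone: library 2 or 4 of wild type, or library 2, 4 or 5 of fndc-1 (highest adjusted p = 0.06639).

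The cpr-4 gene (chromosome V, 6614674 to 6615851) encodes a secreted cathepsin B-like protease known from the worm's response to irradiation. It stood at 595.4, 1458, 392.8, 1503 and 698 CPM in wild-type libraries 1 to 5, against 517.8, 375.8, 376.4, 281 and 266.2 CPM in fndc-1 and 291.6, 450.5, 337.1, 256.9 and 416.8 CPM in the double mutant. Wild-type libraries 2 and 4 were far above the rest, and wild-type library 3 lay within the range of both mutants. The double mutant had 2.65-fold less cpr-4, a fall that passed the test (log2 -1.41, SE 0.333, adjusted p = 0.02576). In fndc-1 the difference was of similar size but missed the threshold (log2 -1.35, 95% interval -2.01 to -0.70, adjusted p = 0.05298), with adjusted p from 0.001573 to 0.253 over the alternatives. Without wild-type libraries 2 and 4 the log2 fold change was -0.61 in fndc-1 (adjusted p = 0.253) and -0.67 in the double mutant (adjusted p = 0.1381). The double-mutant call was also lost on leaving out library 2 or 4 of wild type or library 1, 4 or 5 of the double mutant alone (highest adjusted p = 0.07773), without double-mutant libraries 2 and 4 together (adjusted p = 0.0745), and when only these strains were fitted (adjusted p = 0.09275).

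The gene cpr-5 was less variable. Its transcript was at 392.2, 478.5, 320.8, 465.1 and 352.7 CPM in wild-type worms, at 268.2, 215.2, 220.3, 260.1 and 260.7 CPM in the single mutant fndc-1, and at 282.7, 254.6, 319, 253.5 and 297.4 CPM in double-mutant libraries. Every library of both mutants lay below the lowest wild-type library, although double-mutant library 3 came within 2 CPM of it. In fndc-1 cpr-5 fell 1.64-fold (log2 -0.71, SE 0.117, adjusted p = 0.004317), a call kept in all 27 alternatives. The fall in the double mutant was 1.43-fold (log2 -0.51, SE 0.117, adjusted p = 0.02101). That call was lost on leaving out library 2 or 4 of wild type or library 4 of the double mutant alone (highest adjusted p = 0.06183), when only these strains were fitted (adjusted p = 0.07887), without double-mutant libraries 2 and 4 together (log2 -0.44, adjusted p = 0.07532), and without wild-type libraries 2 and 4 together (log2 -0.33, adjusted p = 0.08535). Its divergent neighbour cpr-8 had log2 0.19 in fndc-1 (adjusted p = 0.7412) and 0.36 in the double mutant (adjusted p = 0.282). Without double-mutant library 4, in which cpr-8 was at 4.721 CPM (10.26 to 12.04 CPM elsewhere in the strain), its log2 was 0.55 (adjusted p = 0.0173).

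**Figure D2:**
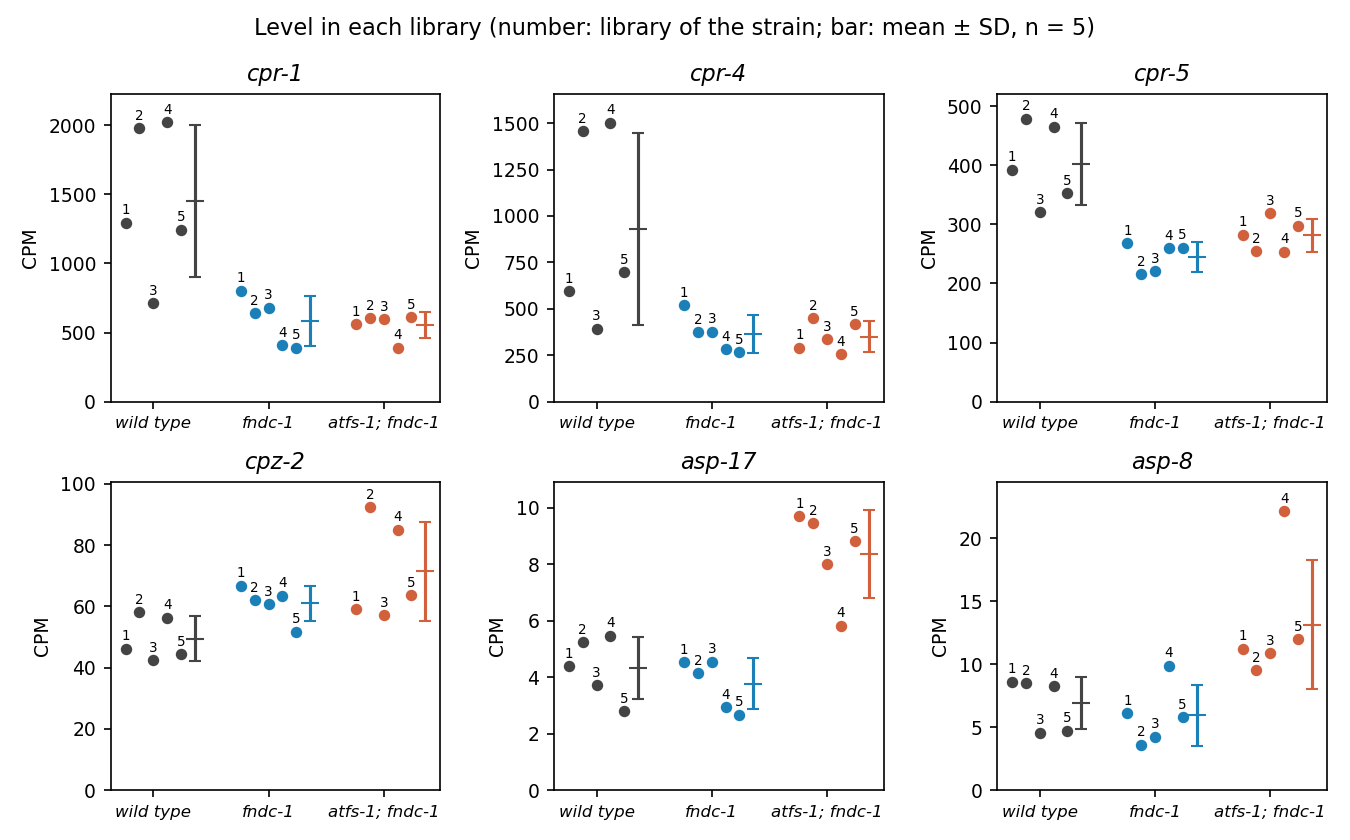
CPM of 6 protease genes in each library (point with its library number) by strain, with the mean ± SD (n = 5) as a bar beside the points. cpr-1, cpr-4 and cpr-5 were higher on average in wild type, where libraries 2 and 4 were highest, while asp-17 and asp-8 were highest in the double mutant, and double-mutant library 4 held 22.16 CPM of asp-8.

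Among the other cysteine protease genes, 0 were called lower. The cathepsin L gene cpl-1 (chromosome V, 16592572 to 16595346), needed for embryo development and yolk processing, averaged 1708 ± 199, 1596 ± 254 and 1604 ± 266 CPM in wild type, fndc-1 and the double mutant (SD, n = 5). The difference from wild type was log2 -0.10 for fndc-1 (95% interval -0.37 to 0.17) and log2 -0.09 for the double mutant (-0.36 to 0.18). The cathepsin B-like gene cpr-6 averaged 1308 ± 49.4, 1190 ± 197 and 1221 ± 302 CPM, with log2 -0.14 (-0.45 to 0.18) and -0.10 (-0.42 to 0.22). For both genes the intervals leave out falls as large as those of cpr-1 and cpr-4. The gene cpr-3, at 13.19 to 32.1 CPM over all libraries, had log2 0.01 (-0.53 to 0.54) and 0.06 (-0.47 to 0.60).

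Both cathepsin Z genes had positive log2 fold changes, and 1 passed the test. The gene cpz-2 (chromosome V, 13381189 to 13383077) had 46.2, 58.13, 42.41, 56.26 and 44.29 CPM in wild-type worms, 66.69, 62.02, 60.68, 63.52 and 51.71 CPM in the single mutant fndc-1, and 58.96, 92.36, 57.09, 85.03 and 63.64 CPM in double-mutant libraries. Double-mutant libraries 2 and 4 were the highest, and libraries 1 and 3 lay close to the top of wild type. Over wild type, cpz-2 rose 1.44-fold in the double mutant (log2 0.53, SE 0.14, adjusted p = 0.04343), and in fndc-1 it had log2 0.30 (adjusted p = 0.3303). The call was kept in 10 of 27 alternatives, and without double-mutant libraries 2 and 4 the value was log2 0.26 (adjusted p = 0.2397). Leaving out 1 library ended the call in 11 of 15 cases, namely libraries 1, 3, 4 and 5 of wild type, 1, 2, 3 and 4 of fndc-1, and 2, 4 and 5 of the double mutant (highest adjusted p = 0.1279). Fitting the sperm marker score as a covariate gave log2 0.30 (adjusted p = 0.3619). The gene cpz-1, whose product is needed for moulting, averaged 305.7 ± 34.7, 341.3 ± 32.4 and 380.8 ± 53.4 CPM. For the double mutant its difference from wild type was log2 0.32 (95% interval 0.10 to 0.53, adjusted p = 0.1229), and with the sperm score as a covariate log2 0.58 (adjusted p = 0.003462).

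Counted over the cysteine class, 0 of 9 tested genes were called higher and 2 lower in fndc-1, beside 1.18% and 0.685% of all genes tested. For the double mutant 1 was higher and 3 were lower, beside 3.71% and 0.998%. In fndc-1 DESeq2 called 0 higher and 3 lower (3.17% and 2.05% of all genes), and limma-voom 0 and 2 (1.17% and 0.579%). In the double mutant DESeq2 called 1 and 3 (5.63% and 3.49%), and limma-voom 0 and 3 (3.56% and 0.752%). With edgeR 4 and 5 cysteine genes were at an unadjusted p under 0.05, beside 14.9% and 21.3% of all genes. Without overlap between strains, 1 of 9 cysteine genes was lower in fndc-1 and 2 were lower in the double mutant, and over all genes 4.03% and 2.22% were. Median log2 fold changes of the class were -0.10 and -0.09, beside 0.0034 and -0.0023 for all genes tested. Between the double mutant and fndc-1, edgeR called 0 of 9 cysteine genes, where 0.978% of all genes were called, 0.738% higher and 0.239% lower. At an unadjusted p under 0.05 there were 0, beside 11.4% of all genes. DESeq2 and limma-voom called 0 between these strains, beside 2.41% and 0.951% of all genes. There cpr-1 had log2 -0.08 (95% interval -0.60 to 0.44), cpr-4 had -0.05 (-0.69 to 0.59) and cpr-5 had 0.20 (-0.03 to 0.43).

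**Figure D3:**
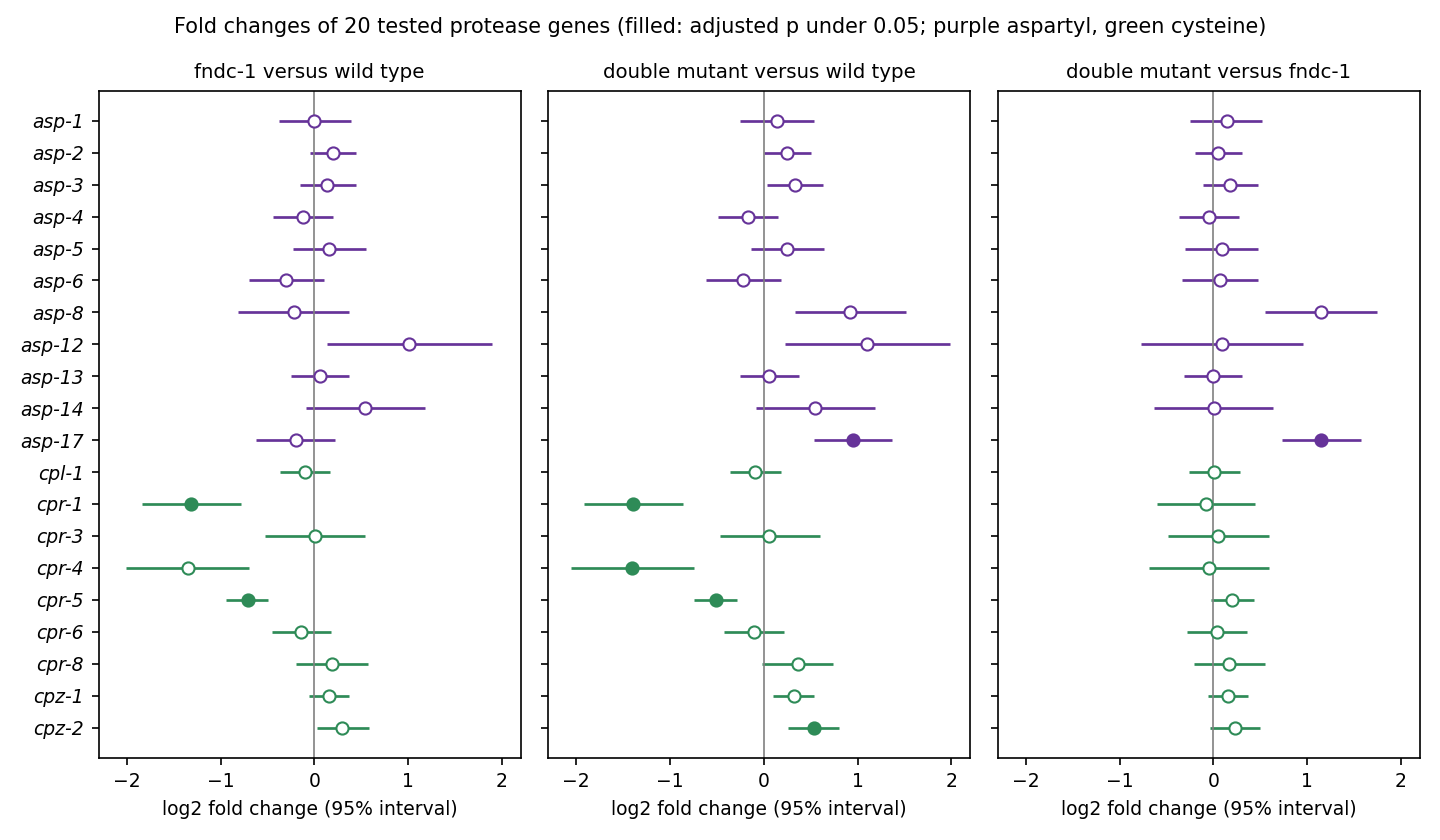
Log2 fold change with its 95% interval for the 20 tested protease genes in 3 comparisons. Filled points passed an adjusted p of 0.05: cpr-1 and cpr-5 in fndc-1 against wild type, cpr-1, cpr-4, cpr-5, cpz-2 and asp-17 in the double mutant against wild type, and asp-17 between the mutants.

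The abundant aspartyl protease genes did not pass the test in any comparison. In wild type, asp-1 was at 2154, 3900, 1770, 3768 and 2038 CPM, in fndc-1 at 3041, 2708, 2930, 2552 and 2440 CPM, and in the double mutant at 2721, 2844, 3161, 3013 and 3294 CPM. Wild-type libraries 2 and 4 were above, and libraries 1, 3 and 5 below, all mutant libraries. The log2 fold change of asp-1 was 0.00 in fndc-1 (95% interval -0.38 to 0.39) and 0.14 in the double mutant (-0.25 to 0.53). The gene asp-6 averaged 2824 ± 892, 2296 ± 441 and 2418 ± 369 CPM, and had log2 -0.30 (-0.70 to 0.10) and -0.22 (-0.62 to 0.18).

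The aspartyl genes asp-3 and asp-4 encode cathepsin D-like proteases needed for necrotic death of neurons in the worm. The asp-3 transcript (chromosome X, 6791064 to 6792709) averaged 1421 ± 355, 1571 ± 210 and 1786 ± 151 CPM, with log2 0.14 (-0.15 to 0.44) in fndc-1 and 0.33 (0.03 to 0.63, adjusted p = 0.2307) in the double mutant. The asp-4 transcript (chromosome X, 13218985 to 13221462) averaged 516.9 ± 40.6, 475.7 ± 81.7 and 460.4 ± 111 CPM, with log2 -0.12 (-0.44 to 0.20) and -0.17 (-0.49 to 0.15). In wild-type libraries 2 and 4 the pair ran apart: asp-3 was at 1800 and 1804 CPM, above the other wild-type libraries, and asp-4 at 490.3 and 471.5 CPM, below them.

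The call that set the double mutant apart from both other strains was asp-17, an aspartyl protease gene of the cluster at the right of chromosome V. It had 4.392, 5.227, 3.72, 5.471 and 2.791 CPM in wild-type worms, 4.536, 4.129, 4.553, 2.935 and 2.677 CPM in the single mutant fndc-1, and 9.708, 9.453, 7.997, 5.819 and 8.821 CPM in double-mutant libraries. All double-mutant libraries were above all others, with library 4 the lowest of the strain. The transcript rose 1.94-fold over wild type (log2 0.95, SE 0.213, adjusted p = 0.01909) and 2.22-fold over fndc-1 (log2 1.15, SE 0.214, adjusted p = 0.01341). Between fndc-1 and wild type asp-17 differed by log2 -0.20 (95% interval -0.62 to 0.22). The call over wild type was lost on leaving out library 5 of wild type or of the double mutant (highest adjusted p = 0.0522), when only these strains were fitted (adjusted p = 0.05019) and with the sperm score as a covariate (log2 0.92, adjusted p = 0.0655). The call over fndc-1 was lost on leaving out library 5 of fndc-1 or of the double mutant (highest adjusted p = 0.05169) and without fndc-1 libraries 4 and 5 together (log2 0.90, adjusted p = 0.1208). The gene lies 4838 kb from atfs-1 on chromosome V, which holds 21 of the 27 protease genes. Another of these, cpz-2, lies 810.6 kb from atfs-1.

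A second aspartyl gene of low level, asp-8, was named after its values were seen. Wild-type libraries held 8.621, 8.494, 4.569, 8.244 and 4.728 CPM, fndc-1 libraries 6.142, 3.608, 4.243, 9.896 and 5.821 CPM, and double-mutant libraries 11.24, 9.522, 10.87, 22.16 and 11.97 CPM. The highest level was in double-mutant library 4, and within fndc-1 in library 4. The ranges of the double mutant and wild type did not overlap. The log2 fold change was 0.92 over wild type (95% interval 0.33 to 1.52, adjusted p = 0.1036) and 1.15 over fndc-1 (0.55 to 1.74, adjusted p = 0.1198), so neither passed. DESeq2 called both (adjusted p = 0.03553 and 0.01534). These libraries numbered 4 also had the highest sperm marker sums of their strains, 543.5 and 1082 CPM. Elsewhere the order differed: wild-type library 1, highest of its strain for asp-8, had a sperm sum of 45.63 CPM. Double-mutant library 2, lowest of its strain for asp-8, had 364.1 CPM. The sperm score ran from -2.26 to 0.785 in wild type and from 0.0984 to 2.41 in the double mutant, so it can take up part of a strain difference. With this score as a covariate asp-8 had log2 0.23 over wild type (adjusted p = 0.7022) and 0.89 over fndc-1 (adjusted p = 0.0839). Its neighbour asp-7, 353 bases away, was below the filter.

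Within the aspartyl class, edgeR called 0 of 11 tested genes in fndc-1, beside 1.87% of all genes. DESeq2 and limma-voom called 0, beside 5.22% and 1.75% of all genes. With edgeR 1 was at an unadjusted p under 0.05, beside 14.9% of all genes. For the double mutant edgeR called 1 higher, asp-17, and 0 lower over wild type, beside 4.71% of all genes called, and the same gene over fndc-1, beside 0.978%. With DESeq2 there were 2 higher and 0 lower in each of these comparisons, beside 9.13% and 2.41% of all genes called. With limma-voom there were 1 and 0, beside 4.31% and 0.951%. With edgeR 4 and 2 aspartyl genes were at an unadjusted p under 0.05, beside 21.3% and 11.4% of all genes. Of the 11 genes, 0 stood without overlap between fndc-1 and wild type, where 8.03% of all genes did. Over wild type 2 were higher without overlap in the double mutant (6.63% of all genes, 4.42% higher), and over fndc-1 there was 1 (4.22% of all genes, 2.67% higher and 1.54% lower). The median log2 of the class was 0.06 for fndc-1 over wild type, 0.25 for the double mutant over wild type, and 0.09 between the mutants, beside 0.0034, -0.0023 and 0.02 for all genes tested.

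These values depended on wild-type libraries 2 and 4. In those libraries 15 of 20 tested protease genes were higher than in wild-type libraries 1, 3 and 5, 9 of 11 aspartyl and 6 of 9 cysteine, and 2 were lower, asp-4 and cpz-1. Over all genes tested these shares were 26.5% higher and 16.9% lower. The largest ratio of highest to lowest wild-type library among the tested protease genes was that of asp-12, at 14.08, 60.05, 13.67, 71.14 and 14.84 CPM in wild type, against 45.05 to 98.48 CPM in fndc-1 and 60.3 to 89.6 CPM in the double mutant. With all libraries asp-12 had log2 1.01 in fndc-1 (adjusted p = 0.2944) and 1.1 in the double mutant (adjusted p = 0.1846). Without wild-type libraries 2 and 4 it had log2 2.32 (adjusted p = 0.0004806) and 2.40 (adjusted p = 0.001093). The gene asp-14 had 37.25, 79.93, 24.43, 90.13 and 30.44 CPM in wild-type libraries and moved likewise, from log2 0.54 and 0.55 with all libraries to 1.33 (adjusted p = 0.0206) and 1.32 (adjusted p = 0.01383). Both genes were singled out after their values were seen, and the libraries left out were those in which both were highest in wild type.

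Leaving out that pair of libraries changed which genes were called. In fndc-1, asp-12 and asp-14 were then higher and cpr-5 lower, where 0.464% of all genes in that fit were called higher and 0.287% lower. In the double mutant 6 were then higher, asp-1 (log2 0.60, adjusted p = 0.02077), asp-3 (log2 0.62, adjusted p = 0.02397), asp-12, asp-14, asp-17 and cpz-2, and cpr-1 was lower (log2 -0.97, adjusted p = 0.04653). In that fit 6.45% of all genes were called higher and 0.522% lower in the double mutant. The aspartyl median became 0.41 in fndc-1 and 0.62 in the double mutant. Wild-type libraries 2 and 4 were also those with the higher sperm marker sums of their strain. Without them, the sums of wild type were 40.67 to 47.75 CPM, and every mutant library had 113.2 CPM or more. In that fit, strain and this difference between libraries cannot be told apart. Intestine marker scores were 0.279 and 0.321 in wild-type libraries 2 and 4, against -0.224 to -0.0342 in libraries 1, 3 and 5. The summed intestine markers did not set them apart. These sums were 67770 and 74180 CPM in libraries 2 and 4, and 49540, 69480 and 70370 CPM in libraries 1, 3 and 5. With the sperm score as a covariate and all libraries, asp-12 had log2 0.94 in fndc-1 (adjusted p = 0.2006) and 0.66 in the double mutant (adjusted p = 0.4858), and cpr-1 had -1.36 (adjusted p = 0.0139) and -1.51 (adjusted p = 0.01223). The part of the intestine markers in the protease levels was not tested.

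Libraries of the mutants differed too. In fndc-1 libraries 4 and 5, 16 of 20 tested protease genes were below fndc-1 libraries 1, 2 and 3 and 0 were above, where 32.6% of all genes tested were below and 33.9% above. Library 4 of the double mutant was the lowest of its strain for 16 of 20 protease genes and for 21.3% of all genes tested. Library 2 was the highest for 10 of 20 protease genes and for 4514 of all 15032 genes tested, and the lowest for 5476 of the latter. Its summed germline markers were 3448 CPM, against 7206 to 9007 CPM in the others of the strain. The summed intestine markers were 18140 CPM in double-mutant library 2 and 43710 to 71720 CPM in the others of the strain. The 10 intestine markers include the yolk protein genes vit-2, vit-5 and vit-6, whose part in these sums was not separated. Over the strains, intestine marker sums ran from 49540 to 74180 CPM in wild-type libraries and from 45130 to 62840 CPM in those of fndc-1.

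**Figure D4:**
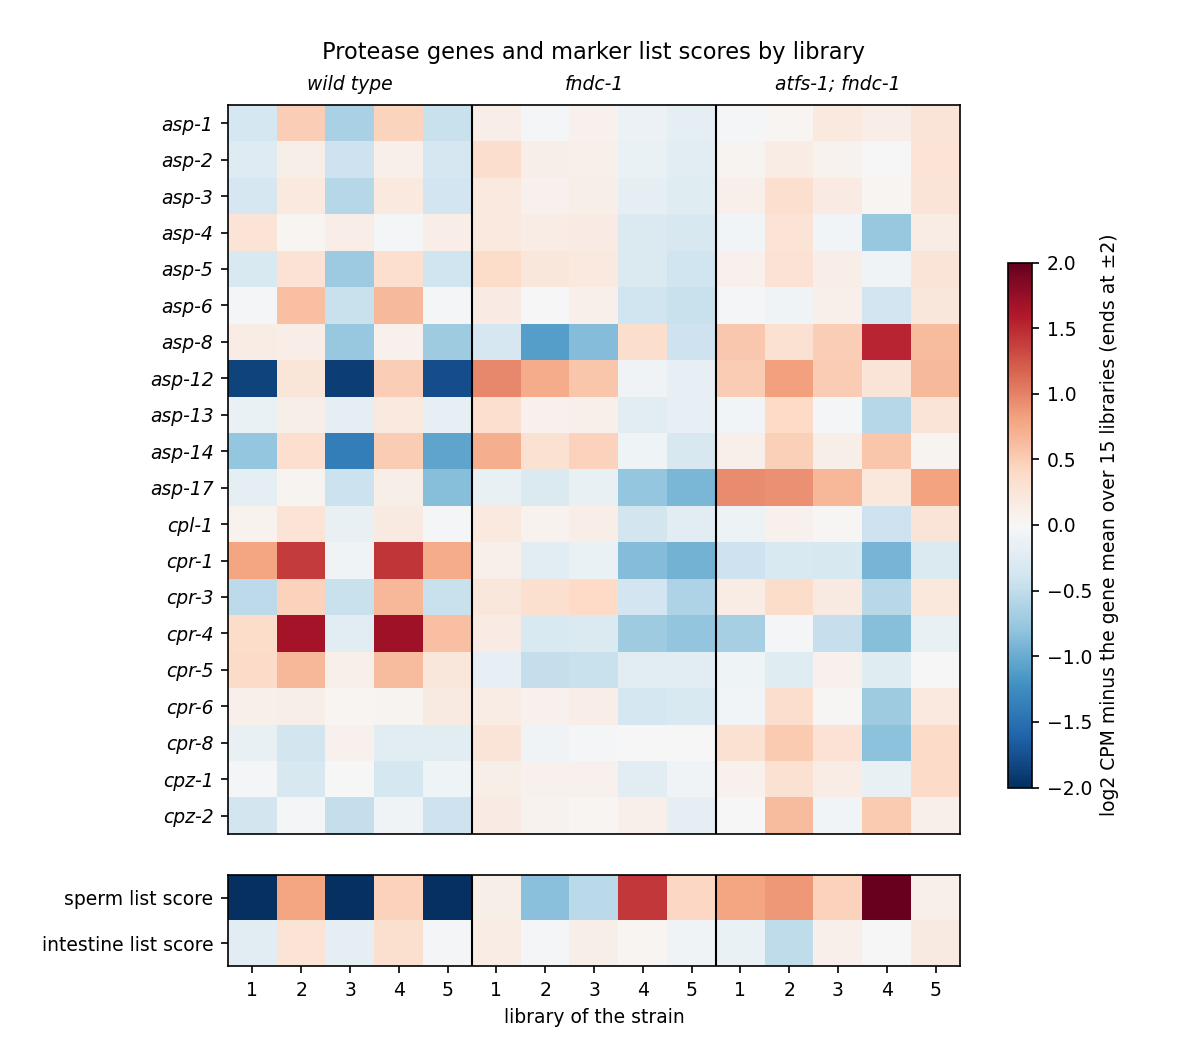
Log2 CPM of the 20 tested protease genes in each of 15 libraries, minus the mean of the gene, with the scores of the sperm and intestine marker lists below (mean centred log2 CPM), on 1 colour scale that ends at ±2. In wild type, libraries 2 and 4 were higher for 15 of 20 genes, as in asp-12 with 13.67 CPM in library 3 and 71.14 CPM in library 4, while cpr-1, cpr-4 and cpr-5 were lower on average in both mutants.

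In wild type, the balance between the classes varied less than the level of either. Summed over all members, aspartyl genes held 7846, 11940, 6365, 11970 and 7518 CPM in wild-type libraries 1 to 5, and cysteine genes 5698, 7560, 4552, 7462 and 5632 CPM. Aspartyl sums were 7414 to 10460 CPM in fndc-1 and 8514 to 10740 CPM in the double mutant, within the wild-type range. Cysteine sums were 3553 to 5264 and 3270 to 5185 CPM, which overlapped wild type. Their means were 4411 and 4494 CPM, against 6181 CPM in wild type. The classes together made up 1.09% to 1.95% of all scaled counts in wild type, 1.11% to 1.57% in fndc-1 and 1.18% to 1.59% in the double mutant. Within each library the aspartyl share of the sum was 57.9%, 61.2%, 58.3%, 61.6% and 57.2% in wild type. It was 66.5%, 66.7%, 66.9%, 68.5% and 66.7% in fndc-1, and 68.1%, 65.8%, 68.3%, 72.2% and 67.4% in the double mutant. All 10 mutant libraries lay above all 5 wild-type libraries, including wild-type libraries 2 and 4, and the mutants overlapped each other. A share within a library does not depend on how libraries are scaled. With counts divided by exon length it was 54.6% to 59.1% in wild type, 64.4% to 66.6% in fndc-1 and 63.7% to 70.4% in the double mutant. No test was made of this sum over chosen genes.

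The balance was also computed without the 3 genes called lower, a choice made after their values were seen. Together cpr-1, cpr-4 and cpr-5 held 31.3% to 53.5% of the cysteine sum in wild type, 24.8% to 30.2% in fndc-1 and 25.5% to 27.5% in the double mutant. With these 3 left out, the aspartyl share was 67.1% to 77.5% in wild type, 72.7% to 74.8% in fndc-1 and 72.1% to 78.2% in the double mutant, so the strains overlapped. The other cysteine genes summed to 3127 to 3646 CPM in wild-type worms, 2601 to 3676 CPM in the single mutant fndc-1, and 2369 to 3858 CPM in double-mutant libraries. The ratio of cpr-1 to asp-1 CPM was 0.601, 0.507, 0.402, 0.536 and 0.611 in wild type, 0.264, 0.237, 0.232, 0.161 and 0.160 in fndc-1 and 0.207, 0.212, 0.188, 0.130 and 0.186 in the double mutant. The lowest wild-type ratio was above the highest mutant ratio, and it came from library 3, where the level of cpr-1 itself overlapped fndc-1. This pair of genes was chosen after its values were seen.

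**Figure D5:**
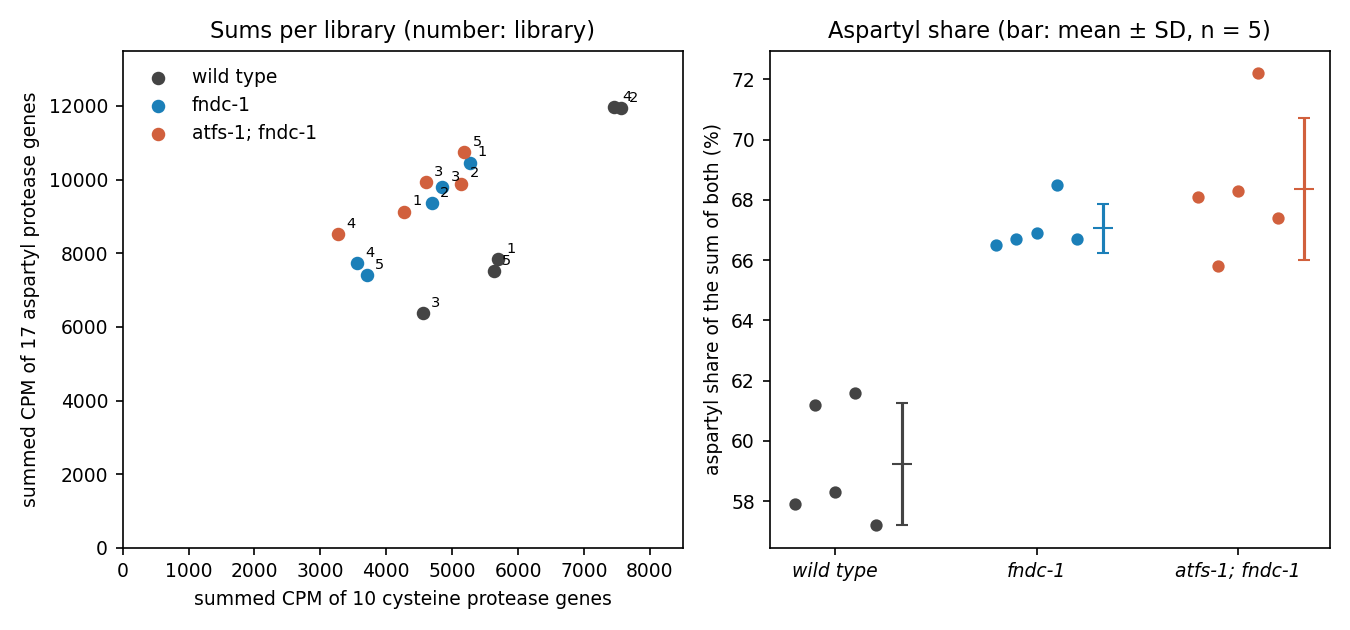
Left, summed CPM of the 17 aspartyl against the 10 cysteine protease genes for each library (numbers), with both axes from 0. Right, the aspartyl share of the sum of both classes in percent, with mean ± SD (n = 5), on an axis that does not start at 0: wild-type libraries lie at 57.2% to 61.6% and mutant libraries at 65.8% to 72.2%.

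Other genes of the lysosome were examined beside the proteases. Of 21 V-ATPase subunit genes, edgeR called 2 higher and 0 lower in fndc-1 and 5 higher and 1 lower in the double mutant (medians log2 0.21 and 0.20). Of all genes tested, 1.18% were called higher and 0.685% lower in fndc-1, and 3.71% and 0.998% in the double mutant. DESeq2 called 9 V-ATPase genes higher and 0 lower in fndc-1 and 7 higher and 1 lower in the double mutant, while limma-voom called 1 and 0, and 3 and 1. At an unadjusted p under 0.05 there were 13 and 11 with edgeR, beside 14.9% and 21.3% of all genes tested. Over all genes tested, DESeq2 called 3.17% higher and 2.05% lower in fndc-1, and 5.63% and 3.49% in the double mutant. The shares of limma-voom were 1.17% and 0.579%, and 3.56% and 0.752%. These shares also apply to the lists below. The subunit H gene vha-15 rose in both, averaging 140.1 ± 3.60 CPM in wild-type worms, 184.1 ± 15.3 CPM in the single mutant fndc-1, and 178.2 ± 19.5 CPM in double-mutant libraries (SD, n = 5). Its log2 fold changes were 0.39 (adjusted p = 0.01801) and 0.35 (adjusted p = 0.02143). The accessory subunit gene vha-20 rose too, with log2 0.26 (adjusted p = 0.04786) and 0.34 (adjusted p = 0.006569), as did the proteolipid gene vha-3 in the double mutant (log2 0.36, adjusted p = 0.02198). The summed level of the 21 genes lay between 4400 and 4489 CPM in wild-type libraries, between 4959 and 5603 CPM in fndc-1 libraries and between 4218 and 5486 CPM in the double mutant.

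Of 40 genes for lysosomal membrane proteins and hydrolases, edgeR called 1 higher and 2 lower in fndc-1, and 0 higher and 3 lower in the double mutant (medians log2 -0.0039 and -0.02). DESeq2 called 2 higher and 5 lower in fndc-1 and 2 higher and 6 lower in the double mutant, and limma-voom 1 and 2, and 0 and 2. At an unadjusted p under 0.05 there were 11 in each mutant with edgeR. The lipase gene lipl-4 fell in both (log2 -0.95, adjusted p = 0.04408, and log2 -1.12, adjusted p = 0.01113), as did cln-3.2, a homologue of the human Batten disease gene (log2 -0.32, adjusted p = 0.02384, and log2 -0.33, adjusted p = 0.01118). The acid sphingomyelinase gene asm-2 rose in fndc-1 (log2 0.53, adjusted p = 0.04103), and the lipase gene lipl-1 fell in the double mutant (log2 -2.20, adjusted p = 0.04244). The level of lipl-1 was low and variable, 3.667 ± 3.366 CPM in wild type and 0.7971 ± 0.316 CPM in the double mutant, with overlapping ranges. Of 13 lysosomal carboxypeptidase and cathepsin F names listed, 7 were found in the count table, and renamed genes were not looked up. Of these 7 genes, 2 rose and 0 fell in each mutant by edgeR. DESeq2 called 4 and 3 higher and 0 lower, limma-voom 2 higher and 0 lower in each, and 4 and 3 were at an unadjusted p under 0.05 with edgeR. These were pcp-2, for a prolyl carboxypeptidase (log2 0.86, adjusted p = 0.02737, and log2 1.04, adjusted p = 0.005578), and ctsa-2, for a cathepsin A homologue (log2 0.53, adjusted p = 0.04266, and log2 0.72, adjusted p = 0.004383).

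Among 13 genes of gut granule formation, the transporter gene haf-9 rose in both mutants (log2 0.60, adjusted p = 0.04256, and log2 0.78, adjusted p = 0.00587). By edgeR 0 others were called in either mutant (1 and 4 at an unadjusted p under 0.05, haf-9 included), as with limma-voom, and DESeq2 called 1 gene lower in the double mutant. Of 13 transcription factor genes of the intestine and lysosome, 0 passed in fndc-1 (edgeR; 1 at an unadjusted p under 0.05, 1 with DESeq2 and 0 with limma-voom) and mxl-3, a repressor of lysosomal lipase genes, rose in the double mutant (log2 0.61, adjusted p = 0.00882). Of 8 cystatin and serpin genes 0 passed in either mutant (edgeR; 0 at an unadjusted p under 0.05, and 0 with DESeq2 or limma-voom). Of 10 intestine markers, the microvillar actin gene act-5 rose in the double mutant (log2 0.52, adjusted p = 0.02882), and 0 passed in fndc-1 (edgeR; 2 at an unadjusted p under 0.05, 1 with DESeq2 and 0 with limma-voom). The troponin T gene mup-2 rose among 8 muscle markers in the double mutant (log2 0.77, adjusted p = 0.0142). Of 89 markers of sperm, oocytes, germline, moulting, pharynx, neurons and coelomocytes, 0 passed by edgeR in either mutant. At an unadjusted p under 0.05 there were 7 in fndc-1 and 29 in the double mutant, 23 of the latter sperm markers, while DESeq2 called 1 and 3 and limma-voom 0. All 33 tested sperm markers had positive log2 fold changes over wild type in both mutants. The medians were 0.74 in fndc-1 and 1.58 in the double mutant, where the lowest was 1.42. The strain ranges were without overlap for 0 of the 33 in either mutant. In the double mutant, DESeq2 had 32 and limma-voom 33 of these at an unadjusted p under 0.05, and in fndc-1 each had 1. Between the mutants 0 of the 209 entries of all 15 lists passed by edgeR, beside 0.978% of all genes tested. At an unadjusted p under 0.05 there were 12 with edgeR, beside 11.4%. DESeq2 called 2 and limma-voom 0, beside 2.41% and 0.951%. No list was tested as a set.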

How the data were processed

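The authors deposited raw counts per gene, with no normalization, for 15 libraries. The submitters' processing notes name the tools Trimmomatic 0.36, STAR 2.6.0c and featureCounts of Subread 1.6.1, and the build WBcel235. Neither the strand setting nor the annotation release is stated in the sources used here, so counts of overlapping genes and near-identical copies are uncertain. The labels call the samples biological but describe no separate cultures, and p-values then cover only the spread between these samples. The lowest chi-square per gene between libraries of a strain was 8.069, so none repeated another. Double-mutant library 2 stood furthest from the others of its strain, at 499.3 to 657.4. Pairs without this library reached at most 150.1.

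Genes were kept by filterByExpr. The test was edgeR 4.0.16 (R 4.3.3), quasi-likelihood and two-sided, with TMM factors and strain means over all 15 libraries, adjusted by Benjamini-Hochberg over 15032 genes with a threshold of 0.05. SE is |log2| over the root of F, and 95% intervals use the normal quantile. Alternatives were RLE or upper-quartile factors, DESeq2 1.42.0, voom of limma 3.58.1, no filter, 1 CPM in 5 libraries, fitting only the compared strains, a replicate block, and each library left out. Pairs of libraries left out and a sperm score covariate were chosen after seeing the data. The sperm score differed between strains, so as a covariate it can take up part of a strain difference. Scores are mean centred log2 CPM with a prior count of 2. Exon lengths are from Ensembl release 115. The code was run on simulated counts with independent libraries. These lacked the subsets of libraries seen within strains, so they do not bear on calls that depend on those libraries.

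Members and lists (V-ATPase, lysosomal membrane and hydrolases, carboxypeptidases and cathepsin F, gut granules, transcription factors, cystatins and serpins, cell type markers) were chosen with earlier results of these data known. Named were all members past the threshold or under the filter, 10 of known role, the 3 highest per kb of each class, and up to 3 genes per list and comparison by adjusted p.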

Additional observations from a re-analysis of the deposited data

Results flagged for a closer look

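In each strain, the highest and lowest of the 5 libraries were compared with the rest for every tested protease gene, a total of 60 sets, of which 4 held a library far from the others. Chance gives about 1 in 20, which is close to this count. Double-mutant library 4 was the distant library in 3 of the 4. Over all genes tested, this library was the highest of its strain for 31.1% and the lowest for 21.3%. It held 22.16 CPM of asp-8, where the other double-mutant libraries held 9.522 to 11.97 CPM. The same library had 390.5 CPM of cpr-1, against 562.4 to 613.3 CPM, and 4.721 CPM of cpr-8, against 10.26 to 12.04 CPM. In the fourth set, fndc-1 library 1 had 9.966 CPM of cpr-8 and the other fndc-1 libraries 7.977 to 8.382 CPM. Double-mutant library 4 also had the highest summed sperm markers (1082 CPM) and moulting markers (975.3 CPM) of its strain, and the part of the moulting markers in the protease levels was not tested.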

How the results depend on the processing

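Correlations of the deviations of same-numbered libraries ran from -0.591 to 0.664 and passed 0.1 for 2, 3 and 2 of 5 numbers in fndc-1 over wild type, the double mutant over wild type and the double mutant over fndc-1. Libraries numbered 4 deviated together in each comparison (0.430, 0.539 and 0.664), but 1, 4 and 3 of 10 libraries correlated best with their own number, and the numbers were not treated as pairs. With the replicate block the numbers of protease genes called were 1, 3 and 2 in the same order, where the main test called 2, 5 and 1. Of all genes, the block called 1.03%, 3.37% and 0.792%, and the main test 1.87%, 4.71% and 0.978%. The block ended the calls of cpr-1 in fndc-1 (adjusted p = 0.06514) and of cpr-4 (0.06597) and cpr-5 (0.0651) in the double mutant, and called asp-8 over fndc-1 (log2 1.16, adjusted p = 0.03236). DESeq2 called 2 in the last comparison, a fit of only the strains compared 1 in the second, and the sperm covariate 4 in the first. Of all genes these settings called 2.41%, 1.87% and 4.3% in the same comparisons. Leaving out fndc-1 libraries 4 and 5 gave 1 in the first and 0 in the last (edgeR, 2 at an unadjusted p under 0.05), beside 2.46% and 0.755% of all genes. Leaving out double-mutant libraries 2 and 4 gave 3 in the second, beside 3.24%. Leaving out 1 library gave 1 to 3, 2 to 5 and 0 to 2. Aspartyl medians were 0.41 and 0.62 over wild type without wild-type libraries 2 and 4, from 0.06 and 0.25. In none of the alternatives did a called gene change sign. Over all genes, where 281, 708 and 147 passed, DESeq2 called 784, 1372 and 363. A fit of only the strains compared called 575 and 275 in the first pair, the replicate block 155 and the sperm covariate 646 in the first. Without double-mutant libraries 2 and 4 the first count was 1116, and without wild-type libraries 2 and 4 the first pair was 115 and 1068. Leaving out 1 library gave 146 to 736, 397 to 1157 and 106 to 161, with the highest count of each without double-mutant library 2. Causes were not tested. The 5 genes with counts under the filter had at most 11 counts in a library, too few for a test.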
